A study of Xenopus laevis with 4 samples.

Results

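In mid-gastrula embryos of the frog Xenopus laevis, FLAG-tagged ETS2 was bound in both ChIP-seq libraries at 1815 regions far from any other such region. They stood at least 100 kb away from the next region found in both libraries, on both sides. They are called isolated regions below. They were chosen by position alone from the authors' list of regions found in both ChIP-seq libraries (common regions), which holds 61137 regions, of which 55441 lie on the 18 chromosomes. A region counted as isolated when the gap to the preceding and to the following common region of the same chromosome, measured edge to edge, was 100000 bp or more. The isolated regions made up 3.27% of the common regions on chromosomes, and the remaining 53626 are called the other regions. Of these, 10328 had a large gap on one side only, and 36, at chromosome ends, had a neighbour on one side only.

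Chromatin immunoprecipitation followed by sequencing (ChIP-seq) was made from whole embryos that had received 750 pg of mRNA for ETS2 with a triple FLAG tag and were harvested at stage 11.5. There are 2 ChIP libraries, made with a FLAG antibody, and 2 input libraries from equally injected embryos, made without antibody. The tagged protein came from injected mRNA in every library, so sites of the embryo's own ETS2 were not measured here, and whole embryos mix all cell types of the gastrula. Library 1 (lettered A) gave 69083 peaks and library 2 (lettered C) gave 157105, and the depth of the libraries is unknown.

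ETS2 belongs to the ETS family of transcription factors, which bind DNA through a conserved ETS domain at sites built around a GGAA core. Some ETS proteins act in the nucleus downstream of FGF and MAP kinase signalling, which helps to form and pattern the mesoderm of the gastrula. Factors of this kind bind both at promoters and at distal elements such as enhancers, which can act on a gene over long distances. The genome of Xenopus laevis consists of an L and an S subgenome, so that each chromosome has an L and an S version. Coordinates are those of the files, and the sources used here do not name their build, so genes and sequences were not assigned.

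The gaps describe the choice and were not tested. The smaller of the 2 gaps of an isolated region had a median of 135.9 kb (interquartile range 114 to 176 kb), against 6.90 kb for the other regions. The larger gap had a median of 232 kb and reached 954 kb. Both gaps were 200 kb or more at 298 regions, 300 kb or more at 53 and 400 kb or more at 10. The gaps beside isolated regions, each counted once, spanned 643 Mb, or 25.6% of the 2508 Mb covered by the chromosomes up to their last peaks. Many isolated regions followed one another: 919 had no isolated region as a direct neighbour, and 896 lay in runs of 2 to 7 consecutive isolated regions. The longest run, of 7, lay at the start of chromosome 1L, at 850082 to 2569462.

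The threshold cut through a continuous range of gaps. The 3 regions just inside it, on 6L at 89157828 to 89158173, on 3S at 119664863 to 119665427 and on 5L at 145353035 to 145353278, had smaller gaps of 100013, 100036 and 100042 bp. The 3 just outside, on 4L at 127675086 to 127675394, on 1S at 170497681 to 170498928 and on 5L at 72714911 to 72715447, had smaller gaps of 99995, 99967 and 99939 bp. A smaller gap below 110 kb was held by 322 isolated regions, and one of 90 kb to below 100 kb by 416 other regions.

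Isolated regions were narrower than the other regions, and few of them were among the strongest ETS2 regions. Their median width was 408 bp (interquartile range 336 to 498), against 460 bp (356 to 631). Within chromosomes the median was 51.3 bp ± 11.6 lower (SD over 9 chromosome pairs, each the mean of its L and S chromosome). It was lower in 9 of 9 pairs (exact permutation test by sign flips over the pairs, two-sided, p = 0.00391, the smallest that 9 pairs can give; 0.00781 after Benjamini-Hochberg adjustment over the 4 main comparisons). This test treats chromosome pairs as its units and says nothing of the spread between embryos.

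The difference in width was largest among wide regions. At the 10th percentile isolated and other regions were 262 and 277 bp wide, and at the 90th percentile 656 and 861 bp. A width of 1000 bp or more was reached by 32 isolated regions (1.76%) and by 3114 other regions (5.81%). The widest isolated region measured 1950 bp and the widest other region 3920 bp. The highest peak in the region was also narrower in each library taken alone, by 30.7 bp ± 18.9 in library 1 (median 206 against 238 bp, lower in 8 of 9 pairs, exact p = 0.00781) and by 49.7 bp ± 10.7 in library 2 (407 against 458 bp, lower in 9 of 9 pairs, exact p = 0.00391). The lowest width in the library 1 list, 94 bp, was held by the highest peak of 79 isolated regions (4.35%) and of 2.74% of the other regions. More than 1 library 1 peak lay inside 72 isolated regions (3.97%) and inside 7.81% of the other regions, a share that was 3.82 percentage points ± 1.12 lower within chromosomes (9 of 9 pairs, exact p = 0.00391). The regions of each chromosome were also split by strength into 5 groups of equal number, inside which strength could still differ. Within these groups isolated regions were still 40.8 bp ± 13.3 narrower (9 of 9 pairs, exact p = 0.00391).

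**Figure D1:**
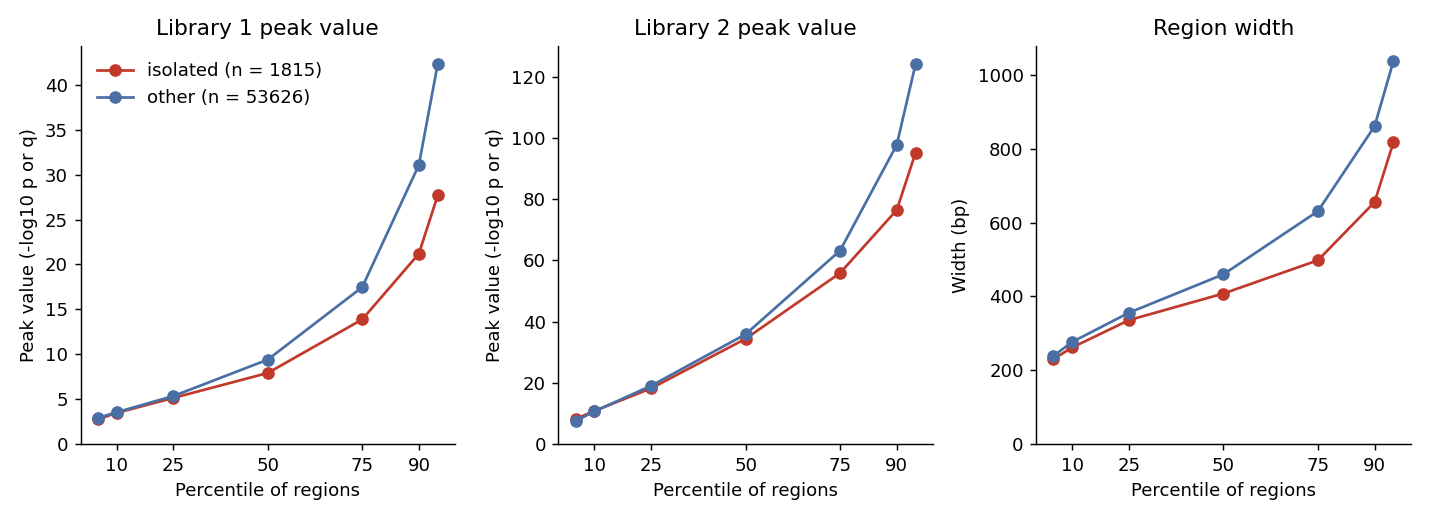
Distribution of the library 1 peak value, the library 2 peak value and the region width, with the percentile of regions (5th to 95th) on the horizontal axis and the value (−log10 p or q, or bp) on the vertical axis. Red points are the 1815 isolated regions and blue points the 53626 other regions; both curves start close together and separate towards the top, where the 90th percentile of width is 656 bp for isolated and 861 bp for other regions.

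Strength was taken from the authors' value per peak, which carries no name in the files and looks like a −log10 p or q. It describes a peak within its own list and is not comparable in size between libraries, so the percentile rank of a region's highest peak within each list was used. In library 1 the peak values of isolated regions ran from 1.37 to 149.7 with a median of 7.92, against a median of 9.41 for the other regions. In library 2 they ran from 1.56 to 213 with a median of 34.4, against 35.9. The ranges of isolated and other regions overlapped over almost their whole length.

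The mean of both percentile ranks had a median of 62.1 in isolated and 66.2 in other regions. Within chromosomes it was 3.82 percentile points ± 3.65 lower (SD, 9 pairs; lower in 8 of 9 pairs, exact p = 0.0195, adjusted 0.026). In library 1 the median rank was 47.8 in isolated and 54.3 in other regions, 6.13 points ± 3.76 lower within chromosomes (8 of 9 pairs, exact p = 0.00781). In library 2 the median ranks were 79.6 and 80.4, and the difference of 0.528 points ± 2.25 was smaller than its spread (lower in 6 of 9 pairs, exact p = 0.48). Library 1 rank minus library 2 rank had a median of −25.7 points at isolated and −20.1 points at other regions. Within chromosomes it was 5.41 points ± 2.32 lower at isolated regions (9 of 9 pairs, exact p = 0.00391). It was 2.35 points ± 1.37 lower within 5 equally filled groups of width and 2.08 points ± 1.05 lower with a minimum peak value of 10 (9 of 9 pairs and exact p = 0.00391 in each). Ranks in the 2 lists do not share a scale, since 95821 of 157105 library 2 peaks but 2629 of 69083 library 1 peaks lay outside common regions. Among other regions the interquartile range of rank was 29.0 to 77.6 in library 1 and 66.9 to 90.4 in library 2. Rank differences in the 2 libraries therefore cannot be compared in size. For the same reason, the p-values for library 1 rank minus library 2 rank cannot show that isolated regions differed more in library 1. Within the 5 groups of width the difference in mean rank was 0.435 points ± 2.9 (lower in 6 of 9 pairs, exact p = 0.645). No difference beyond the spread was thus seen within these groups, inside which width could still differ.

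**Figure D2:**
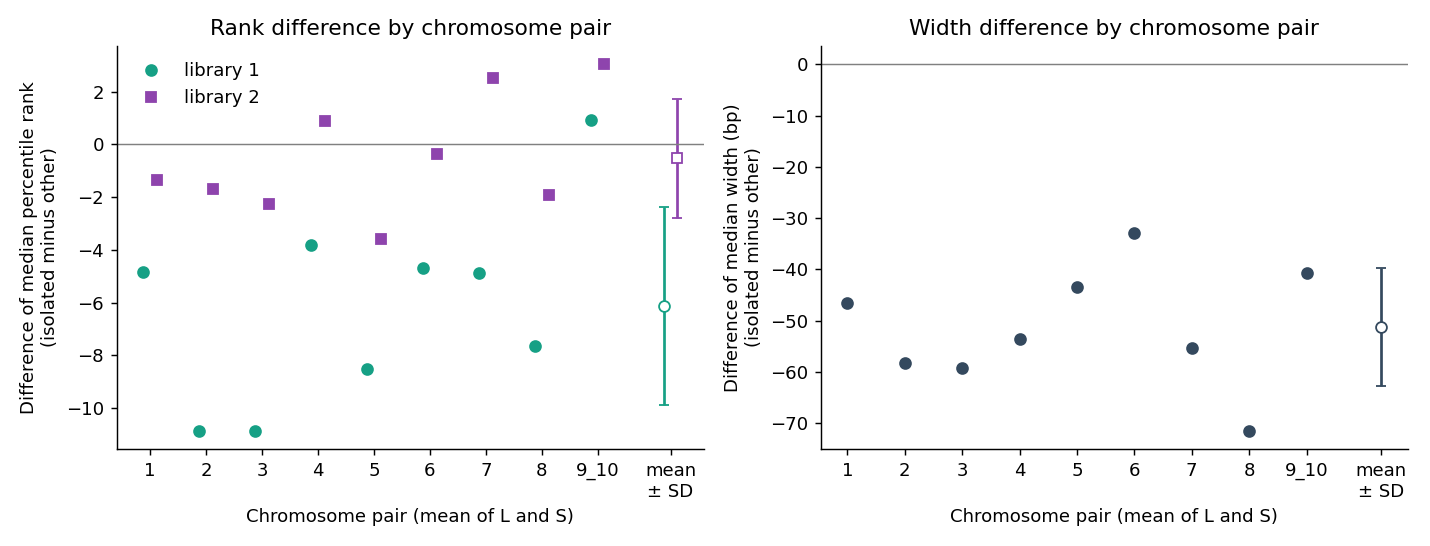
Differences between isolated and other regions on each of the 9 chromosome pairs (filled points, mean of the L and the S chromosome) and their mean ± SD over pairs (open points). The left panel shows the median percentile rank in library 1 and library 2, where library 1 lies below 0 in 8 pairs and library 2 on both sides of 0; the right panel shows the median width, below 0 in every pair.

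The upper end of the strength scale differed in both libraries, while the lower end did not detectably differ. The top 10% of common regions on chromosomes in library 1 held 65 isolated regions, which is 3.58% of them (exact Clopper-Pearson 95% interval 2.77 to 4.54%, counting error only), against 10.2% of the other regions. In library 2 it held 88 isolated regions (4.85%, 3.91 to 5.94%), against 10.2%. The top 10% of both libraries at once held 47 isolated regions (2.59%, 1.91 to 3.43%), against 7.22% of the other regions, a share 4.25 percentage points ± 1.34 lower within chromosomes (9 of 9 pairs, exact p = 0.00391). The bottom 10% of library 1 held 11.2% of isolated and 10.1% of other regions (higher in 6 of 9 pairs, exact p = 0.375), and that of library 2 held 9.75% and 10.04% (higher in 5 of 9 pairs, exact p = 0.488). Within the 5 groups of width, the share in the top 10% of both libraries was 1.65 points ± 2.58 lower (7 of 9 pairs, exact p = 0.0898).

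In classes of the smaller gap, pooled over chromosomes, median library 1 rank and median width were lower the larger the gap was, with no step at 100 kb. Regions with a neighbour closer than 2 kb had a median library 1 rank of 56.5 and a median width of 487 bp. For smaller gaps of 20 to 50 kb these medians were 52.0 and 445 bp, for 50 to 100 kb 49.5 and 425 bp, for 100 to 200 kb 47.9 and 412 bp, and for 200 kb or more 46.4 and 400 bp. The median rank in library 2, where common regions fill a narrower span of ranks, stayed between 78.3 and 81.2 in all 8 classes of gap. The median library 2 value did not decline steadily either. It was 35.0 below 2 kb, 37.6 at 2 to 5 kb, 35.0 at 100 to 200 kb and 32.1 at 200 kb or more. The median library 1 value declined from class to class, from 9.88 to 7.69. Regions with a large gap on one side only were between the others in width, with a median of 431 bp. Among the isolated regions alone, the smaller gap and the mean rank were nearly unrelated (Spearman's rho −0.0155 across 1815 regions, which share libraries and chromosomes). The same held for the smaller gap and library 1 rank (rho −0.00368) and for the smaller gap and the width (rho −0.0464).

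**Figure D3:**
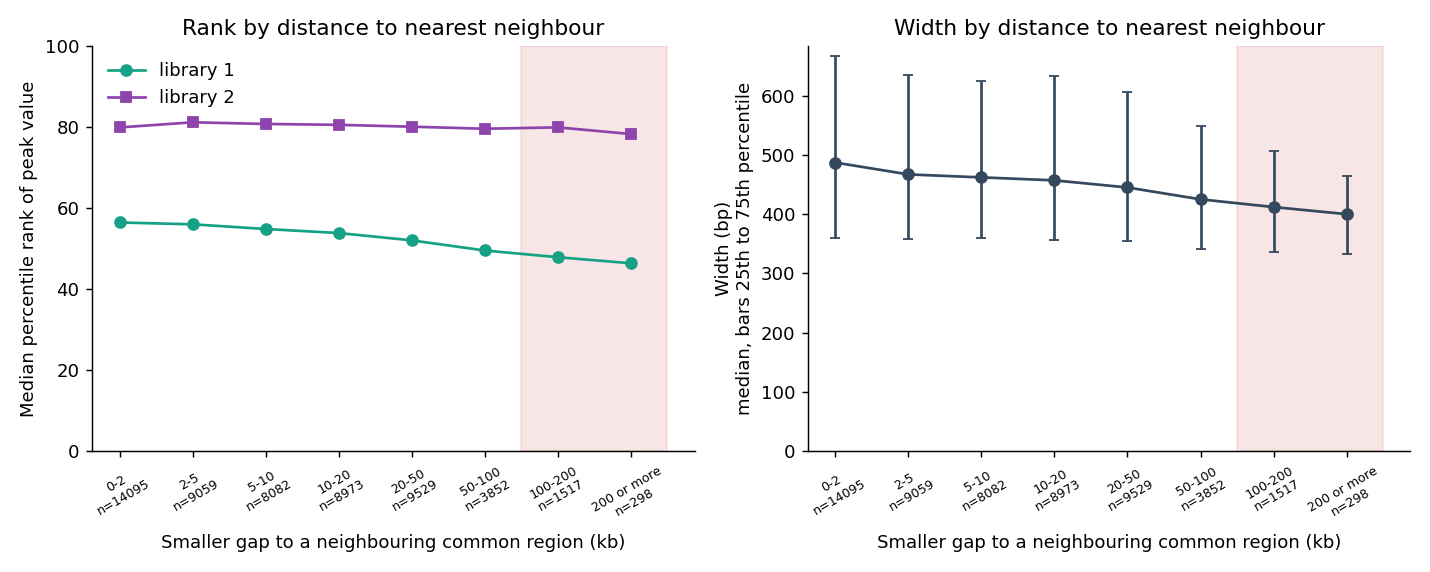
Median percentile rank in each library (left) and median width in bp with bars from the 25th to the 75th percentile (right), for common regions on chromosomes sorted by the smaller of their 2 gaps in kb. The shaded classes are the isolated regions; library 1 rank and width decline from left to right, from 56.5 to 46.4 and from 487 to 400 bp, while library 2 rank stays near 80.

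A small number of isolated regions were nevertheless among the strongest in the genome. The highest peak of the whole library 1 list, with a value of 149.7, lay in an isolated region on chromosome 8S at 16228884 to 16229693, where library 2 had a value of 213, the 197th of its list. That region is 810 bp wide, holds 2 library 1 peaks and was 170.4 kb from its left and 207 kb from its right neighbour. By mean rank it was number 22 of all common regions, and it opened a run of 6 consecutive isolated regions. It was the only isolated region among the 100 highest-ranked common regions on chromosomes, and 10 were among the highest 1000 (1%), against 3.27% of all regions on chromosomes.

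The other 9 of the 10 highest-ranked isolated regions had library 1 values of 59.2 to 89.7 and library 2 values of 121 to 208, and all lay on L chromosomes. Of all 1815 isolated regions 955 lay on L, and the median mean rank was 62.1 on both L and S. Chromosome 2L held a region at 84980599 to 84981217, where library 1 had a value of 85.9 and library 2 one of 207, and another at 67063674 to 67064735, with 59.2 and 208. Chromosome 3L held a region at 51669407 to 51670304, with values of 81.8 and 195, and another at 106020496 to 106021177, with 61.4 and 175. The 10 regions were chosen by mean rank, so values above the medians of 7.92 and 34.4 for isolated regions follow from the choice. Chromosome 6L held a region at 147204942 to 147205520, with values of 88.5 and 169, and the widest of the 10, with 1364 bp, at 71520630 to 71521993, with 74.9 and 146. Values of 80.7 and 174 were found on 4L at 32862457 to 32863158, values of 65.3 and 192 on 9_10L at 39853520 to 39854127, and values of 89.7 and 121 on 7L at 40144408 to 40145137. Their order differed between the libraries, since the last had the second highest value of the 10 in library 1 and the lowest in library 2.

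The 3 regions farthest from any other common region were close to the median of isolated regions in library 1, and 1 of them was well above it in library 2. The most distant, on 1L at 23395626 to 23396000, was 510.1 kb from its left and 743 kb from its right neighbour, and its value was 8.28 in library 1 and 28.0 in library 2. It was followed by 169445944 to 169446280 on 2L, with gaps of 698 and 493 kb and values of 8.48 and 22.6. Gaps of 478 and 557 kb flanked 98755738 to 98756157 on 9_10L, whose values were 8.79 and 72.9. The medians of isolated regions were 7.92 and 34.4, and 72.9 lies above their 75th percentile in library 2, which was 55.9. The weakest isolated regions by mean rank were on 1S at 179590532 to 179590795 (values of 3.46 and 1.56) and on 3S at 100183751 to 100184059 (3.48 and 2.02) and at 59804837 to 59805063 (2.79 and 3.26). Their percentile ranks were 10.7, 11.3 and 6.17 in library 1 and 0.261, 1.27 and 7.504 in library 2.

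Most isolated regions were not alone in library 2. The 95821 library 2 peaks outside every common region were not used to choose the isolated regions, and they are called library 2-only peaks here. Each common region also holds a library 2 peak, and the choice took stretches poor in common regions. Lower shares and counts than at other regions, and their p-values, are therefore not independent of the choice. At least 1 of them lay within 100 kb of 1750 isolated regions (96.4%, 95.5 to 97.2%), where their median number was 4, and of 99.7% of the other regions. Both shares are near the ceiling of 100% at this distance. Within 10 kb, 745 isolated regions (41.0%, 38.8 to 43.4%) had a library 2-only peak, against 68.6% of the other regions, a share 27.8 percentage points ± 4.09 lower within chromosomes (9 of 9 pairs, exact p = 0.00391, adjusted 0.00781). Within 1 kb the shares were 10.96% and 18.5% (9 of 9 pairs, exact p = 0.00391). Within 100 kb isolated regions had 4.05 library 2-only peaks on average and the other regions 10.2 (9 of 9 pairs, exact p = 0.00391). The nearest library 2-only peak within 10 kb had a median value of 6.38 beside isolated and 6.33 beside other regions (higher in 5 of 9 pairs, exact p = 0.852).

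Library 2-only peaks were denser next to isolated regions than farther away from them. Their density was 59.5 per Mb within 1 kb of an isolated region, 29.4 per Mb at 1 to 5 kb, 23.9 at 5 to 10 kb, 19.2 at 10 to 50 kb and 19.2 at 50 to 100 kb. Within 5 kb it was 1.80 times that at 50 to 100 kb (mean log2 ratio 0.85 ± 0.27, SD over 9 pairs, above 0 in 9 of 9 pairs, exact p = 0.00391). Around the other regions the density declined from 104 to 46.3 per Mb over the same distances, a peak near several regions being counted for each, and the corresponding ratio was 1.67 (mean log2 ratio 0.74 ± 0.049). The ratios of isolated and other regions differed by less than their spread (log2 difference 0.11 ± 0.24, exact p = 0.234).

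**Figure D4:**
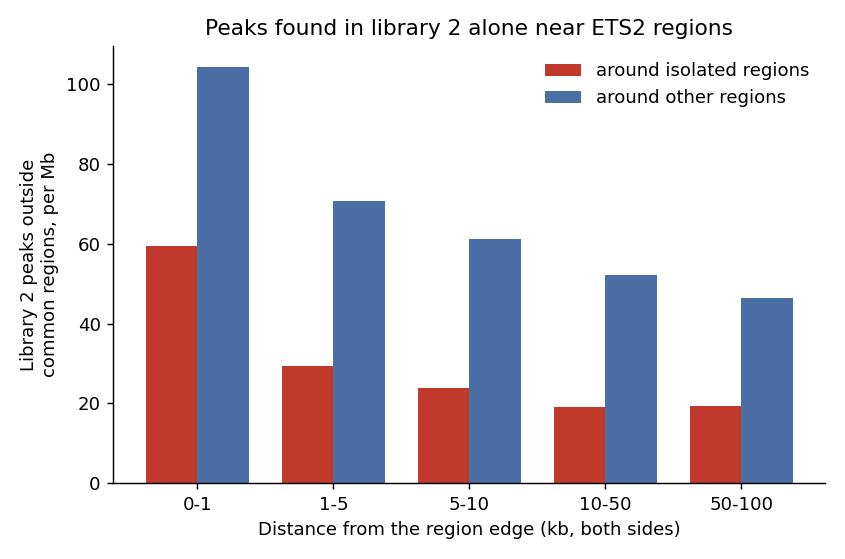
Density of library 2 peaks outside all common regions, in peaks per Mb, by distance in kb from the edges of isolated (red) and other (blue) regions, pooled over chromosomes and without error bars. Around isolated regions the density is 59.5 per Mb in the first kb and 19.2 per Mb from 10 kb onwards, and it is lower than around other regions at each distance.

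Peaks found in library 1 but in no common region were also scarcer, a comparison that is likewise not independent of the choice. Of the 2629 such peaks in the whole list, at least 1 lay within 100 kb of 127 isolated regions (6.997%, 5.87 to 8.27%), against 18.9% of the other regions (lower in 9 of 9 pairs, exact p = 0.00391). At 65 isolated regions (3.58%) neither list held another peak within 100 kb, and 30 of these lay on L and 35 on S chromosomes. Their values ran from 1.46 to 47.8 in library 1 (median 7.57) and from 4.14 to 151 in library 2 (median 34.4), with a median width of 396 bp. The other 1750 isolated regions had medians of 7.92, 34.5 and 409 bp. The highest-ranked of the 65, singled out after its values were seen, was on 9_10L at 117192385 to 117193053, with values of 47.8 and 98.0.

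Common regions were also sparser between 100 kb and 1 Mb from isolated regions. There were 18.1 per Mb, against 25.9 around the other regions (lower in 9 of 9 pairs). This is no separate test, since the choice used the same positions. The larger gap of an isolated region, with a median of 232 kb, reached into this distance. At the same relative position of the partner chromosome, in a window of 1% of its length, the density was 20.2 common regions per Mb opposite isolated and 23.9 per Mb opposite other regions. That difference was 3.27 per Mb ± 2.65 within chromosomes (lower in 7 of 9 pairs, exact p = 0.0156, adjusted 0.026 over the 25 further comparisons). Whether the same relative position marks matching stretches of the partner chromosomes was not checked. Along the chromosomes the isolated share ranged from 2.23% of common regions in the first 10% of the length to 3.81% between 20 and 30% of it. The first and last 10% together held 19.1% of isolated and 21.7% of other regions (lower in 7 of 9 pairs, exact p = 0.191). The 2 ends were unlike, since the isolated share was 2.23% in the first 10% and 3.72% in the last 10%.

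Isolated regions were found on all 18 chromosomes, and their share followed the density of common regions, as a share set by gaps must to some extent. It was highest on 1S, with 162 of 3449 regions (4.70%), 5S (4.61%) and 6S (4.55%), and lowest on 8S, with 47 of 2675 (1.76%), and 9_10L (1.88%). Across the 18 chromosomes, which share libraries and lists, the rank correlation of regions per Mb with the isolated share was −0.944. There were 955 isolated regions among 31313 on L chromosomes (3.05%, 2.86 to 3.25%) and 860 among 24128 on S chromosomes (3.56%, 3.33 to 3.81%). These intervals hold counting error only and treat regions as independent, although isolation depends on neighbouring regions. They are therefore no test of L against S. The share was 0.512 percentage points ± 0.627 lower on L (8 of 9 pairs, exact p = 0.0469, adjusted 0.0469), and the common regions themselves were denser on L, at 22.9 against 21.2 per Mb. Their parts in this difference cannot be told apart. Without chromosome pair 1 or 5 the p was 0.0938, and it was above 0.05 without any single pair other than pair 8. It also missed the threshold with a gap of 200 kb (exact p = 0.887), a minimum peak value of 10 (0.0898), reciprocal overlap of 50% (0.0859) and the peak list of library 1 (0.113) or library 2 (0.152) alone. With a gap of 50 kb it did not (−1.06 points, lower on L in 7 of 9 pairs, exact p = 0.0469). Per Mb of chromosome, isolated regions numbered 0.698 on L and 0.754 on S (L to S ratio 0.942, mean log2 ratio −0.085 ± 0.29, lower on L in 7 of 9 pairs, exact p = 0.371).

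**Figure D5:**
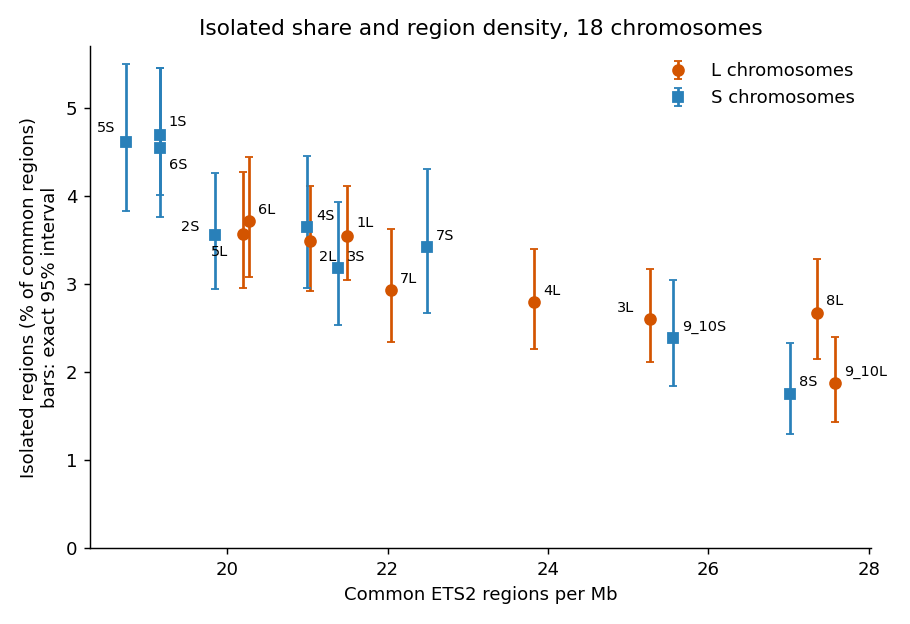
Isolated regions as a percentage of common regions (vertical axis, with exact 95% intervals for counting error) against common regions per Mb (horizontal axis) for the 9 L and 9 S chromosomes. The share declines from 4.70% on 1S to 1.76% on 8S as the density increases, and both kinds of chromosome take part in the decline.

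On L and S chromosomes the isolated regions had close values in the measures above. Their median width was 408 bp on L and 409 bp on S, their median mean rank 62.1 on both, and 40.6% on L and 41.5% on S had a library 2-only peak within 10 kb. The difference in width from the other regions was −53.7 bp on L and −48.8 bp on S (difference of −4.89 bp ± 19.8 over 9 pairs, exact p = 0.473), and that in mean rank was −4.24 and −3.40 points (difference of −0.842 ± 5.99, exact p = 0.668). These p-values do not show that the subgenomes are the same, and the spread would hide differences of this size.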

How the data were processed

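Peak lists of 2 ChIP libraries, each tied by the labels to 1 input, and a list of common regions were used. Bowtie2 2.2.3 and MACS2 are named, without role or settings, in the submitters' processing notes; their genome build is not given in sources used here. The authors deposited 1 value per peak, which looks like a −log10 p or q, since it never falls below 1.30. All 61137 deposited common regions had the outermost bounds of the overlapping peaks (at least 1 bp) of both lists. Read counts and depth are unknown, so precision is given as exact 95% binomial intervals or the SD over chromosome pairs. The binomial intervals hold counting error only and treat regions as independent. The labels do not say whether libraries came from separate embryo batches.

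A region's strength was the percentile rank of its highest peak in each list, averaged. Differences of medians or shares were taken within chromosomes, averaged over L and S, and tested by sign flips over 9 pairs (512 patterns, two-sided). The procedure was tried on simulated ranks, independent between regions, with differences of means. That does not show how it behaves for medians or for neighbouring regions that are alike. The 4 main comparisons and 25 further ones, added after the data were seen, were adjusted separately by the Benjamini-Hochberg method. The smallest p, 0.00391, becomes 0.00888 over the 25, and 0.00781 becomes 0.014. Regions named are the 10 strongest, the 3 weakest, the 3 most distant and the 3 on each side of the threshold. Members and comparisons were chosen with earlier results of these data known. Alternatives were gaps of 50 or 200 kb, a minimum value of 10, a reciprocal overlap of 50%, single libraries, other distances, comparison within 5 groups of width or rank, and omitted chromosome pairs. Python 3.11.15, numpy 2.4.6, pandas 2.3.3, scipy 1.17.1 and matplotlib 3.10.9 were used.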

Additional observations from a re-analysis of the deposited data

Results flagged for a closer look

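Unplaced scaffolds lie outside the choice of isolated regions, and 67 common regions there, on 33 scaffolds, also had gaps of 100 kb or more on both sides. This is 1.96% of the 3418 scaffold regions with a neighbour on each side. Their median mean rank was 61.6 and their median width 412 bp, where the remaining scaffold regions had 64.6 and 399 bp. The width thus differed in the opposite direction to that on chromosomes, where the medians were 408 and 460 bp. These differences were not tested.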

How the results depend on the processing

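On the chromosomes, the narrower width and the scarcity of library 2-only peaks within 10 kb kept their direction and their side of the threshold in every alternative tried. Their sizes moved: the width difference was −82.1 bp with a minimum value of 10 (−51.3 in the main comparison). The difference in the share within 10 kb was −16.2 points when only library 2 peaks of at least 10 were counted (−27.8). With a minimum value of 10 for regions and with reciprocal overlap, isolated regions were chosen anew among the regions kept, which gave 2861 and 2730. Library 2 peaks in the regions dropped then counted as library 2-only. Without each chromosome pair in turn, the median rank stayed lower, by 3.34 to 4.81 points (exact p up to 0.0391). With 1 library left out, the rank difference ranged from −6.13 (library 1 alone) to −0.528 points (library 2 alone), and within 5 groups of width it was −0.435; the causes were not tested. The L minus S share of isolated regions missed the threshold in most alternatives. It was −0.0103 points with a gap of 200 kb, −1.12 with a minimum value of 10, −0.945 with reciprocal overlap, and −0.302 to −0.047 with 1 library left out. The library 1 list alone held 1695 isolated peaks and the library 2 list alone 251. Changing the gap, the regions or the list also changed the isolated share itself, so these points cannot be compared in size. The L minus S share kept its side of the threshold with a gap of 50 kb (−1.06 points, 5667 isolated regions, exact p = 0.0469) and without chromosome pair 8 (−0.691 points). Without chromosome pairs 1, 2, 3, 4, 5, 6, 7 and 9_10 in turn it was −0.433, −0.567, −0.504, −0.469, −0.445, −0.472, −0.515 and −0.511 points, where 8 pairs allow no p below 0.00781. With a gap of 200 kb, 298 regions were left. The lower value of library 1 rank minus library 2 rank (−5.17 points, exact p = 0.0508) and the lower partner density (−2.56 per Mb, exact p = 0.0742) then also missed the threshold. The lower partner density of −3.27 per Mb was −1.60 with a minimum value of 10 and −2.03 with reciprocal overlap, and the log2 ratio of near to far peak density, 0.85, was 0.53 with a gap of 50 kb. Between ChIP and input replicates of the same number, no paired analysis was possible because the lists hold no separate values for the inputs. Unknown depth limits the reading of library 2-only peaks.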

Other observations

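Chromosome pair 9_10, singled out after its values were seen, was the only pair in which isolated regions had the higher median mean rank on average. It was 70.0 in isolated and 66.7 in other regions of 9_10L, and 71.2 and 66.2 on 9_10S, with 61 and 64 isolated regions. Their median width was nevertheless lower than that of the other regions, at 424 against 475 bp on 9_10L and 430 against 461 bp on 9_10S. At the other extreme, isolated regions of 3L had a median mean rank of 55.1 against 66.1, and those of 8L had 57.9 against 68.1.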
